A study of Mus musculus with 6 samples.

Results

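The genes described here are those whose symbol places them in the lysine demethylase (Kdm), Kmt2, Setd, Setdb, Ezh, histone deacetylase (Hdac), sirtuin (Sirt) and bromodomain (Brd) families. They were chosen by symbol alone, and 62 of the 41128 genes in the deposited table carried such a symbol. They comprise 19 Kdm, 11 Setd or Setdb, 11 Hdac, 7 Sirt, 7 Brd, 5 Kmt2 and 2 Ezh genes, of which 61 are protein coding and 1, Kdm6bos, is an antisense RNA lying within Kdm6b. Expression was measured by RNA sequencing in 6 mice with acute myeloid leukemia (AML), 3 per cohort. All samples are labelled C57BL/6. Every leukemia arose from CD45.1+ KIT+ bone marrow cells (the CD45.1+ mice of the study were B6.SJL congenics) that had received Hoxa9 by retrovirus. These cells had been transplanted into irradiated CD45.2+ mice. Donors at marrow harvest and recipients at transplantation were females of 6 to 12 weeks. Cells were taken later, when mice were sick, and the study reported later onset of AML in Hoxa9/IRX3 than in Hoxa9/MTV recipients. Time since transplantation may therefore differ between the cohorts. The Hoxa9/MTV cohort (mice 1.1, 1.2 and 1.4) carried the empty vector MTV in addition, and the Hoxa9/IRX3 cohort (mice 3.2, 3.3 and 3.5) carried the human IRX3 cDNA, which encodes an Iroquois homeodomain transcription factor. Both genes were driven from retroviral vectors in transplanted cells, and each sample is the marrow of 1 recipient; whether mice of a cohort received cells of 1 transduced pool is not given in the sources used here. Leukemia cells were sorted from the marrow of sick mice as viable donor-derived KIT+Gr1+ cells, and the comparison asks how IRX3 altered the transcriptome of Hoxa9 leukemia.

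Histone tails are modified by enzymes that add a group (writers), enzymes that remove it (erasers) and proteins that bind the modified residue (readers). Kmt2 and Setd1 enzymes methylate lysine 4 of histone H3 at active genes, Ezh1 and Ezh2 methylate lysine 27 at silenced genes as the catalytic subunits of Polycomb repressive complex 2, and Kdm enzymes remove methyl groups from particular lysines. Hdac and Sirt enzymes remove acetyl groups from lysines, using zinc and NAD respectively, and bromodomains bind acetylated lysine. Several of these proteins are well known in AML: KMT2A is a frequent fusion partner in this disease, and KDM1A and BRD9 have been studied as dependencies of leukemia cells.

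Values are RPKM (read counts scaled to the length of the gene and to the size of the library) as deposited, and the 6 libraries held 7979246 to 9803621 counted reads. A protein-coding gene was tested if it exceeded 0.5 RPKM in at least 1 mouse, which left 9522 genes and 52 of the 62 members. Reads had been counted over the whole gene including introns, so a gene with long introns has a low RPKM, and levels of different genes are therefore compared below as RPKM recomputed per kilobase of exon. Of the markers used for sorting, Kit was read at 1.63 to 3.12 RPKM and Ly6c2, part of the Gr1 antigen, at 413 to 844 RPKM in all 6 libraries. Ly6g, also part of that antigen, was at 0.0532 to 0.145 RPKM in Hoxa9/MTV and 0.682 to 1.42 RPKM in Hoxa9/IRX3 mice. The B cell and the T and NK cell marker lists summed to at most 0.258 and 0.0511 RPKM in any mouse, and Pax5, Ms4a1 and Ncr1 were at 0 in all. Erythroid markers summed to at most 0.308 RPKM and megakaryocyte markers to at most 0.857 RPKM, and the 7 proliferation markers, of which 0 were called, to 98.7 to 109 RPKM in Hoxa9/MTV and 96.0 to 146 RPKM in Hoxa9/IRX3 mice. Mouse Irx3, to which reads of the human cDNA may align in part, had no reads in the Hoxa9/MTV cohort, and in mice 3.2, 3.3 and 3.5 its level was 15.1, 0.421 and 0.148 RPKM, whereas Hoxa9 was read at 154 to 363 RPKM throughout. Xist was read in all 6 mice and the Y-linked genes Ddx3y, Eif2s3y, Uty and Kdm5d were at 0 in all. The samples were bulk populations, in which fewer cells of a type and less RNA per cell cannot be told apart.

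Of the 61 protein-coding members, 60 were read in at least 1 mouse, and their levels spanned a wide range. On the scale of RPKM per kilobase of exon, the BET protein gene Brd2 was the most highly expressed member, with a level of 61.9 ± 21.1 (SD, n = 3) in the Hoxa9/MTV and 43.3 ± 4.83 (n = 3) in the Hoxa9/IRX3 cohort. The highest in each of the other families were Setd8 among Setd and Setdb genes (29.7 ± 0.962 and 27.4 ± 5.35, respectively), Kdm5c among Kdm genes (19.8 ± 1.84 and 27.6 ± 4.85), Kmt2e among Kmt2 genes (17.9 ± 2.03 and 19.1 ± 1.77), Sirt7 among sirtuins (19.4 ± 2.11 and 17.1 ± 1.88), Hdac1 among deacetylases (13.3 ± 1.38 and 15.6 ± 1.29) and Ezh2 (9.14 ± 1.04 and 10.7 ± 2.75). Setd8 (named Kmt5a in current annotation) writes monomethylated H4 lysine 20, and Kmt2e is a SET domain protein with no methyltransferase activity of its own established. At the bottom of the range, Hdac11, Sirt5, Kdm5b and Setd4 averaged 0.511, 0.971, 1.1 and 1.15 over the 6 mice, Kdm4d averaged 0.235, and Kdm5d was at 0. A count of 0 allows up to 0.00637 RPKM for Kdm5d in the shallowest library (3 reads, counting error only). This bound is for the whole gene including introns, and it would be higher per kilobase of exon. Intronic reads are included in these levels, which therefore overstate mature transcript for long genes.

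**Figure D1:**
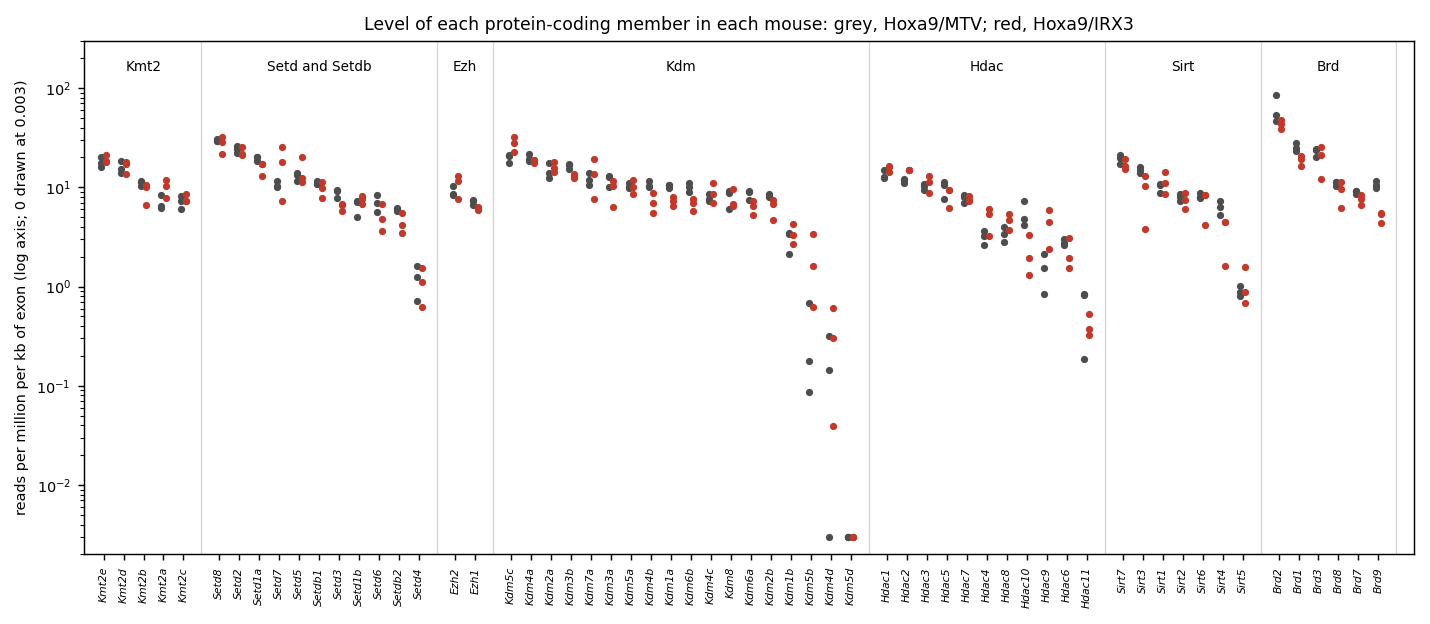
Level of 60 of the 61 protein-coding members in each mouse, in RPKM recomputed per kilobase of exon on a log axis, grouped by family and ordered by mean; each point is 1 mouse, grey for Hoxa9/MTV and red for Hoxa9/IRX3. Most members lie within a band that the cohorts share, Brd2 is the highest, and Kdm5d, at 0, is drawn at the foot of the axis.

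Of the 52 tested members, 1 passed the test between cohorts, Brd9, which fell in Hoxa9/IRX3 leukemias. No member passed it as higher in Hoxa9/IRX3 cells. Across all genes, 5.36% passed the same threshold (510 of 9522; limma on log2(RPKM + 0.5), Benjamini-Hochberg adjusted p under 0.05), with 3.52% lower and 1.84% higher in Hoxa9/IRX3 cells, so the share of members that passed, 1.92%, was no larger than the background. When a change of at least 2-fold was also required, 0 members and 3.13% of all genes passed. At an unadjusted p under 0.05 the count was 10 of 52 members (19.2%), against 24.3% of all tested genes. The criterion used by the study, a ratio of mean RPKM over 2 with an unadjusted p under 0.05, was met by 2 members, Brd9 and Hdac10, and by 6.97% of all tested genes. Members other than Brd9 are described below by their values and intervals, because a p that misses the threshold does not show that the cohorts were alike.

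The intervals were narrow for most members. For 45 of 52 (86.5%) the 95% interval of the log2 fold change lay within ±1, against 73.6% of all tested genes. The 7 members whose interval reached a 2-fold change were Brd2, Brd9, Hdac10, Kdm5b, Setd7, Sirt3 and Sirt4. This scale makes changes and intervals smaller for genes with low values. On recovered reads (limma voom, genes with at least 10 reads in 3 mice) Kdm4b had −0.60, against −0.31 here. In that fit the intervals of Kdm4b, Hdac6 and Setd6 also reached a 2-fold fall, with lower bounds of −1.08, −1.05 and −1.20. In the reported fit the log2 fold change was negative for 35 members (67.3%, against 57.5% of all tested genes) and positive for 17. Its median was −0.16 beside −0.063 for all tested genes. With median-of-ratios scaling 32 members were negative, beside 49.3% of all tested genes, and with quantile normalization 29 were, beside 48%. By family the median was −0.27 for Brd, −0.22 for Sirt, −0.15 for Setd and Setdb, −0.080 for Kdm, −0.0050 for Hdac, −0.0074 for Ezh and 0.063 for Kmt2. The Hdac median covers 7 of 11 genes, and its sign was not stable. It ranged from −0.058 to 0.030 as single mice were left out. The median of all genes itself shifted to 0.0056 with median-of-ratios scaling and to 0.017 with quantile normalization, and the members' median was then −0.091 and −0.072. Those scalings turned the sign of 3 and 6 members, respectively, all of them close to 0 (Hdac7, Kdm5a and Kdm8, and with quantile normalization also Kdm4a, Setd2 and Sirt2), and left all 7 Brd genes negative. Leaving out single mice turned the sign of 1 to 6 members per fit.

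**Figure D2:**
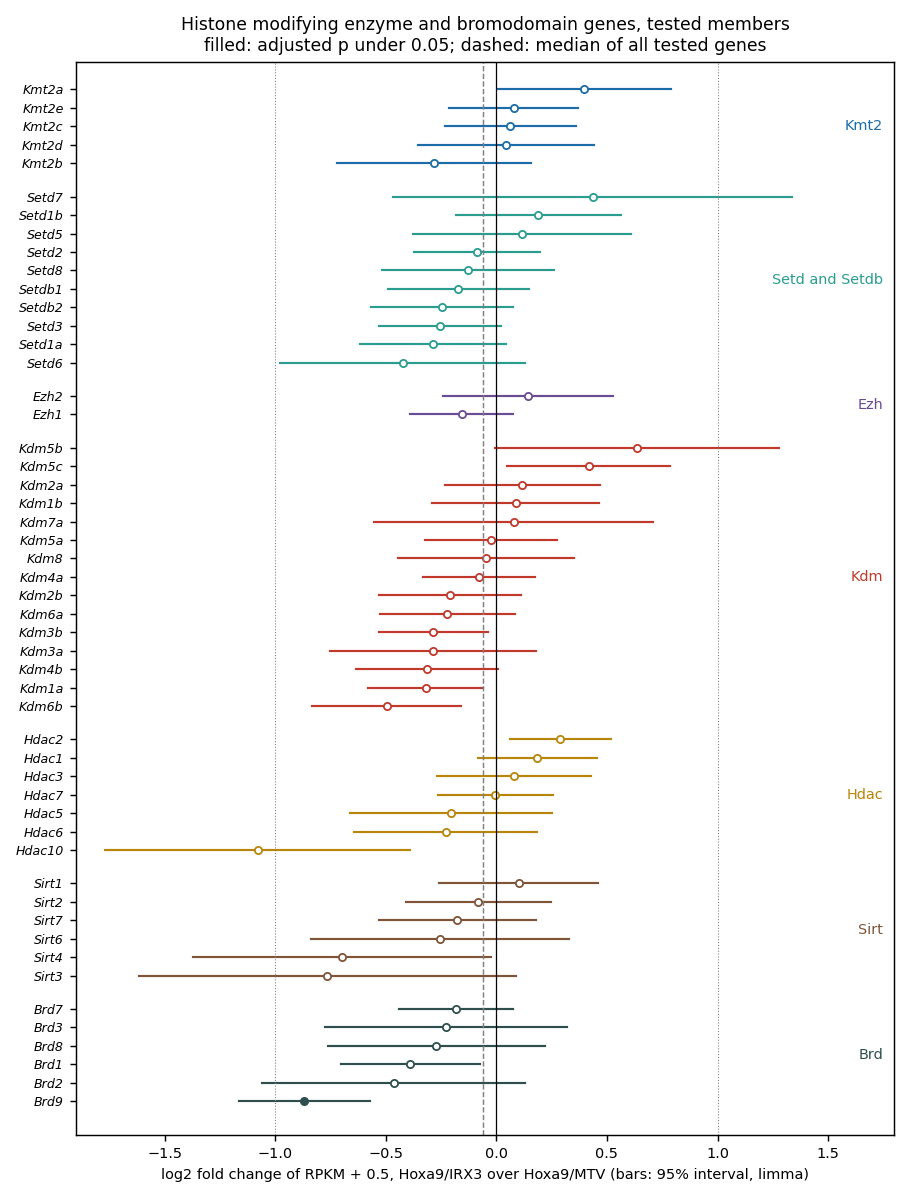
Log2 fold change of RPKM + 0.5 in Hoxa9/IRX3 over Hoxa9/MTV for 51 of the 52 tested members, by family; bars are 95% intervals from limma (n = 3 mice per cohort), a filled point marks an adjusted p under 0.05, dotted lines mark 2-fold and the dashed line the median of all tested genes, −0.063. The filled point is Brd9, the 6 Brd genes drawn lie left of 0, and the widest intervals belong to Setd7, Sirt3, Hdac10, Sirt4 and Kdm5b.

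Readers of acetylated lysine were all read at a lower mean in Hoxa9/IRX3 cells, and 1 of the 7 passed the test. Brd9 encodes the bromodomain subunit of the non-canonical SWI/SNF chromatin remodeling complex. Its level was 2.97, 3.16 and 3.53 RPKM in mice 1.1, 1.2 and 1.4 but 1.68, 1.64 and 1.30 RPKM in mice 3.2, 3.3 and 3.5, from 605, 605, 787, 343, 370 and 240 reads, respectively. Each Hoxa9/IRX3 mouse was thus below every Hoxa9/MTV mouse, by a wide margin relative to the spread within either cohort. Mean Brd9 expression was 3.22 ± 0.285 RPKM in the control cohort and 1.54 ± 0.205 RPKM with IRX3 (SD, n = 3), and the log2 fold change of −0.87 (95% interval −1.16 to −0.57, SE 0.12) passed the test at an adjusted p of 0.0169 (limma). The gap was at least as large with any 1 of mice 1.1 and 1.2 left out (−0.92 and −0.88) but the call was lost, with an adjusted p of 0.0712 and 0.0948, as it was without mouse 1.4 (−0.81, adjusted p = 0.101). Calls over all genes also dropped, from 510 to 74, 66 and 61, respectively, in these fits with 2 control mice. Of 4 markers of mast cells and basophils 1, Cpa3, was called as lower. The list, most of it Mcpt8, summed to 10.2 to 14.4 RPKM in controls and 4.31 to 7.30 RPKM with IRX3, while Ms4a2 was at 0.279 to 0.542 and 0.610 to 1.09 RPKM, respectively, and Fcer1a at 0 in all mice. Among monocyte and macrophage markers Ccr2, a chemokine receptor, was called (log2 fold change −2.06, limma adjusted p = 0.00843), and the Gr1 gene Ly6g was called as higher (1.35, adjusted p = 0.0205). Their part in the Brd9 result was not tested.

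Brd9 lies at chr13:73937811-73960895 on the plus strand (GRCm38, GENCODE M21), and its start faces that of Trip13, an ATPase gene of the mitotic checkpoint, on the minus strand. According to RefSeq promoter sequences (GRCm38.p6), which were found for 48 of the 62 members, the annotated starts of these genes are 44 bases apart. The 300 bases around the Brd9 start (250 before and 50 after it, plus strand, chr13:73937561-73937860) are given because they hold the annotated starts of both genes; capitals mark the 43 bases between the starts.
Brd9: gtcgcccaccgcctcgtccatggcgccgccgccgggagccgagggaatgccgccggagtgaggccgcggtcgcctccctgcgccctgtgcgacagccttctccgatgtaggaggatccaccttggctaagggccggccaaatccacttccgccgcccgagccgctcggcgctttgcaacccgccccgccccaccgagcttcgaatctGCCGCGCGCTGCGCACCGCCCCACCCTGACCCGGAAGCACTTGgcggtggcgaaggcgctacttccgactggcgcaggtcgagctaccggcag
The window is 72% G or C and holds 40 CpG dinucleotides, against a median of 24 in the 66 windows of members and 7 in the 32851 windows of all genes. Trip13, looked up after the value of Brd9 was seen, was read at 1.30, 1.72 and 1.56 RPKM in Hoxa9/MTV mice versus 1.61, 1.41 and 1.15 RPKM in Hoxa9/IRX3 mice, and the cohorts overlapped (log2 fold change −0.10, SE 0.14, limma adjusted p = 0.679). The log2 ratio of Brd9 to Trip13 was 0.95, 0.72 and 0.96 in Hoxa9/MTV mice and 0.049, 0.16 and 0.13 in Hoxa9/IRX3 mice. This ratio restates the separation of Brd9 and was given no test.

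The motif ACANNTGT, bound by Iroquois homeodomain proteins and identical on both strands, was not present in the Brd9 window. It was present in a window of 2 of the 48 members with a sequence (4.17%), Kmt2a and Setd8, and of 8.39% of the 27025 genes with a promoter window. The median share of G or C was 62.67% in the windows of members and 52.67% in all windows. These counts describe letters in the promoter windows and say nothing of binding.

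Other subunits of SWI/SNF complexes, also looked up after the value of Brd9 was seen, did not pass the test. Smarca4, an ATPase of these complexes, had −0.021 (SE 0.11) as its log2 fold change, and Gltscr1 and Gltscr1l, subunits that together with Brd9 define the non-canonical complex, had −0.20 (SE 0.13) and −0.35 (SE 0.18). The log2 fold changes of all 11 subunits examined ran from −0.71 for Actl6a (SE 0.18, limma adjusted p = 0.0758), an actin-related subunit, to 0.25 for Pbrm1 (SE 0.11, limma adjusted p = 0.237), a PBAF subunit. Brd7, the Brd9 paralog in the PBAF complex, had −0.18 (SE 0.11, adjusted p = 0.339).

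Among the BET genes, whose proteins carry paired bromodomains and recruit transcription elongation factors, Brd2 was read at 39.3, 34.3 and 63.4 RPKM in Hoxa9/MTV mice versus 35.5, 31.9 and 28.4 RPKM in Hoxa9/IRX3 mice. The cohorts overlapped, mouse 1.4 stood above the other 5, and the log2 fold change of −0.47 (SE 0.25, limma adjusted p = 0.299) was −0.21 without that mouse. Brd3 had a log2 fold change of −0.23, which was 0.024 without mouse 3.3. Brd1, a scaffold of MOZ and HBO1 acetyltransferase complexes, was at 4.19 to 5.04 RPKM in Hoxa9/MTV and 2.94 to 3.73 RPKM in Hoxa9/IRX3 mice without overlap (log2 fold change −0.39, SE 0.13, limma adjusted p = 0.136). Brd8, a subunit of the TIP60 acetyltransferase complex, had −0.27 (SE 0.20), which was −0.053 without mouse 3.5.

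**Figure D3:**
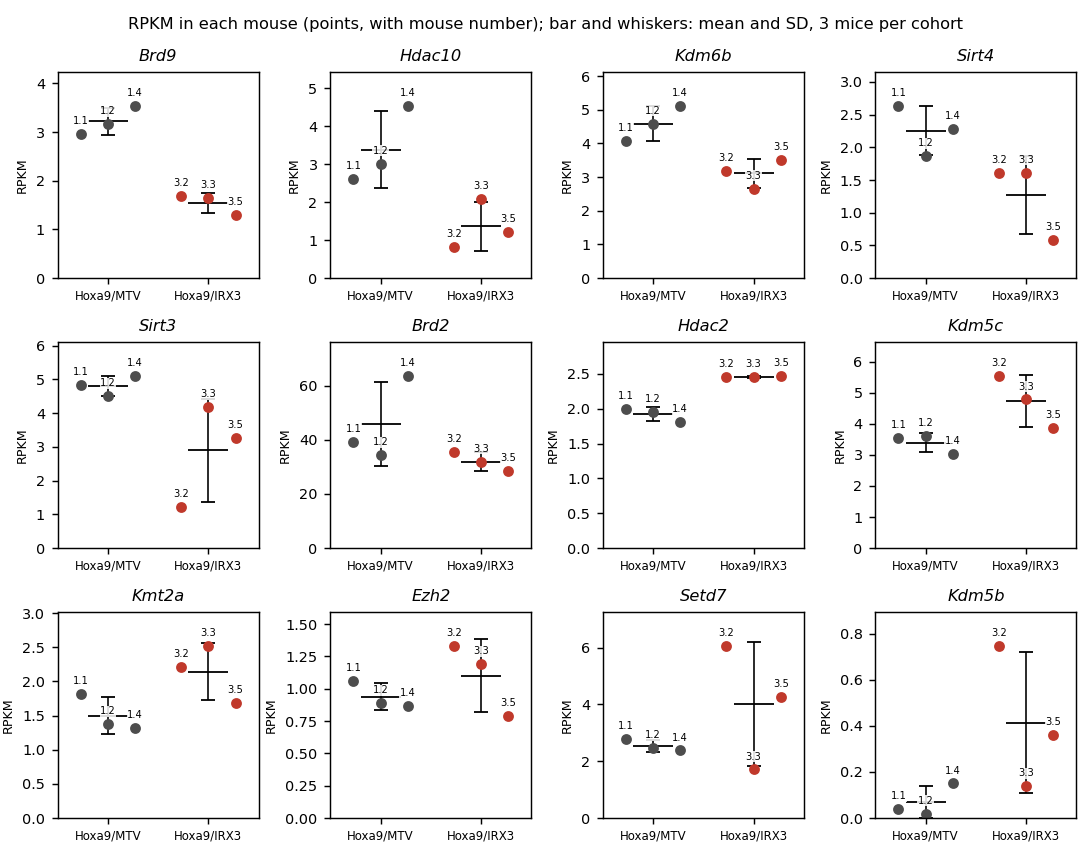
RPKM of 12 members in each mouse (points with mouse numbers), with the mean and SD of each cohort (n = 3). Brd9, Hdac10, Kdm6b, Sirt4 and Sirt3 were lower in every Hoxa9/IRX3 mouse than in any Hoxa9/MTV mouse, Hdac2 and Kdm5c were higher in every one, in Setd7 mouse 3.3 sits apart from mice 3.2 and 3.5, and in Kdm5b mouse 3.2 is the highest.

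Genes of the H3 lysine 4 writers showed no call in 7 tested, with 5 positive and 2 negative log2 fold changes and a median of 0.063. Kmt2a had the largest fold change of the Kmt2 family. It was read at 1.81, 1.37 and 1.31 RPKM in Hoxa9/MTV mice versus 2.21, 2.51 and 1.69 RPKM in Hoxa9/IRX3 mice, where mouse 3.5 fell within the control range (log2 fold change 0.40, SE 0.16, 95% interval 0.01 to 0.79, limma adjusted p = 0.2). Kmt2b, Kmt2c and Kmt2d, its paralogs in COMPASS-like complexes, had −0.28, 0.063 and 0.043 (Kmt2c reads may in part belong to Gm20432, which overlaps it on the same strand; Kmt2b had −0.090 without mouse 3.5), and Kmt2e, the family member with the highest level, was at 2.42 to 3.01 RPKM in Hoxa9/MTV and 2.67 to 3.16 RPKM in Hoxa9/IRX3 mice (0.078, SE 0.12, adjusted p = 0.725). Setd1a and Setd1b, which write trimethylated lysine 4, had −0.29 (−0.17 without mouse 3.5) and 0.19.

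Setd7, a monomethyltransferase of H3 lysine 4 and of non-histone proteins, varied more between Hoxa9/IRX3 mice than any other member of its family. It was read at 2.78, 2.45 and 2.38 RPKM in the Hoxa9/MTV mice versus 6.05, 1.71 and 4.26 RPKM in mice 3.2, 3.3 and 3.5. Mice 3.2 and 3.5 were above all controls and mouse 3.3 was below them, and the log2 fold change of 0.44 (SE 0.38, limma adjusted p = 0.51) became 0.88 (adjusted p = 0.0484) without mouse 3.3 and 0.098 without mouse 3.2. Mouse 3.3 also differed from mice 3.2 and 3.5 in markers of myeloid maturation. Csf1r, the receptor of the macrophage growth factor, was at 0.79, 6.43 and 0.552 RPKM in mice 3.2, 3.3 and 3.5 and at 4.77 to 5.94 RPKM in controls. The 8 mature neutrophil markers, of which 0 were called, summed to 2030, 1090 and 3325 RPKM in mice 3.2, 3.3 and 3.5 and to 1482 to 2174 RPKM in controls. The 8 monocyte and macrophage markers read, of which 1 was called, summed to 63.0, 25.6 and 22.4 RPKM and to 48.4 to 68.8 RPKM in controls. Their part in the values of Setd7 was not tested.

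Genes of the H3 lysine 4 erasers likewise gave no call in the 5 tested. Kdm5c, an X-linked gene and the Kdm member with the highest level, was at 3.53, 3.62 and 3.03 RPKM in Hoxa9/MTV mice versus 5.53, 4.79 and 3.87 RPKM in Hoxa9/IRX3 mice, all 3 above the controls (log2 fold change 0.42, SE 0.15, 95% interval 0.05 to 0.78, limma adjusted p = 0.164). Kdm5b had the largest fold change of the Kdm family at low levels, 0.0391, 0.0192 and 0.150 RPKM against 0.745, 0.139 and 0.359 RPKM (12 to 109 reads against 102 to 496 reads). It entered the test through mouse 3.2 alone, mouse 3.3 lay within the control range, and the log2 fold change was 0.64 (SE 0.27, limma adjusted p = 0.21), or 0.39 without mouse 3.2. Because the pseudocount of 0.5 exceeds most of these values, the change depended on it, and on the recovered reads (limma voom) it was 2.66 (SE 1.12, adjusted p = 0.198). Kdm1a, the amine oxidase that removes mono- and dimethylation, was at 0.977 to 1.06 RPKM in Hoxa9/MTV and 0.648 to 0.802 RPKM in Hoxa9/IRX3 mice (log2 fold change −0.32, SE 0.11, limma adjusted p = 0.136). Kdm5a and Kdm1b had −0.023 and 0.086. Kdm1b also entered the test through mouse 3.2 alone (0.571 RPKM). It had 0.0017 without that mouse and −0.011 without mouse 1.2.

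At H3 lysine 27, neither the writers nor the erasers passed the test. Ezh2 was read at 1.06, 0.888 and 0.866 RPKM in Hoxa9/MTV mice versus 1.33, 1.19 and 0.786 RPKM in Hoxa9/IRX3 mice, where the cohorts overlapped because mouse 3.5 was the lowest of all (log2 fold change 0.14, SE 0.16, 95% interval −0.24 to 0.53, limma adjusted p = 0.614). Ezh1 was at 1.56, 1.52 and 1.39 RPKM and at 1.27, 1.32 and 1.26 RPKM, a small gap without overlap (log2 fold change −0.16, SE 0.10, limma adjusted p = 0.358). The log2 ratio of Ezh2 to Ezh1 averaged −0.47 ± 0.0694 in Hoxa9/MTV and −0.17 ± 0.256 in Hoxa9/IRX3 mice (SD, n = 3). Its two-sided exact permutation p was 0.2. With 3 mice per cohort this test cannot give a p under 0.1, so it cannot decide whether the ratio differed. The demethylase Kdm6b was read at 4.09, 4.59 and 5.11 RPKM in Hoxa9/MTV mice versus 3.18, 2.66 and 3.50 RPKM in Hoxa9/IRX3 mice. The lowest control exceeded the highest Hoxa9/IRX3 value, and the log2 fold change was −0.50 (SE 0.14, 95% interval −0.83 to −0.16, limma adjusted p = 0.0942). Its X-linked paralog Kdm6a was at 0.536 to 0.653 and 0.376 to 0.516 RPKM, respectively (−0.22, SE 0.13, adjusted p = 0.326). Kdm6bos, on the strand opposite Kdm6b, had 1 read in mouse 1.4 and 0 in the other 5, beside the 395 to 749 reads of Kdm6b in each library.

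At H3 lysine 9, the writers Setdb1 and Setdb2 had log2 fold changes of −0.17 and −0.25, and the erasers Kdm3a, Kdm3b, Kdm4a, Kdm4b and Kdm7a had −0.29, −0.29, −0.080, −0.31 and 0.077, with Kdm3a at −0.090 without mouse 3.5 and Kdm7a at −0.17 without mouse 3.2. Adjusted p-values (limma) of these 7 genes were 0.157 or more, with Kdm3b the lowest. Kdm3b was at 3.47 to 3.86 RPKM in Hoxa9/MTV and 2.83 to 3.07 RPKM in Hoxa9/IRX3 mice. At H3 lysine 36, the writer Setd2, a tumor suppressor in AML, had −0.088 with a 95% interval of −0.37 to 0.20, and the erasers Kdm2a and Kdm2b had 0.12 and −0.21. Setd8, the writer of H4 lysine 20 monomethylation, was read at 6.91, 6.93 and 7.31 RPKM in Hoxa9/MTV mice versus 6.80, 7.57 and 5.09 RPKM in Hoxa9/IRX3 mice. Its log2 fold change of −0.13 (SE 0.16, limma adjusted p = 0.659) rested on mouse 3.5, without which it was 0.024. Setd3, which methylates actin, Setd5 and Setd6, which methylates the NF-kB subunit RelA, had −0.25, 0.12 (−0.11 without mouse 3.2) and −0.42 (−0.24 without mouse 3.5), and the JmjC protein gene Kdm8 had −0.048.

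Among the 7 tested zinc-dependent deacetylases none passed the test, and the class I enzymes differed from the class IIb enzymes in the sign of their log2 fold changes, under either other scaling as well. The class I genes Hdac1, Hdac2 and Hdac3, catalytic subunits of the Sin3, NuRD, CoREST and NCoR corepressor complexes, had 0.18, 0.29 and 0.079, that of Hdac3 being −0.024 without mouse 3.2. Hdac2 was at 2.00, 1.95 and 1.81 RPKM in Hoxa9/MTV mice versus 2.45, 2.45 and 2.47 RPKM in Hoxa9/IRX3 mice, a small separation with little spread in either cohort (SE 0.10, 95% interval 0.06 to 0.52, limma adjusted p = 0.129). Hdac1, the deacetylase with the highest level, was at 1.63, 1.93 and 1.60 RPKM and at 2.14, 2.10 and 1.83 RPKM, and the cohorts overlapped (SE 0.11, limma adjusted p = 0.354).

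Hdac10, a class IIb enzyme that deacetylates polyamines, had the largest log2 fold change of all 52 members on the log2(RPKM + 0.5) scale, −1.08 (SE 0.29, 95% interval −1.77 to −0.39, limma adjusted p = 0.0818). That of Kdm5b was larger on the recovered reads (2.66 against −1.35), with a pseudocount of 0.1 (1.49 against −1.30) and per kilobase of exon (1.44 against −1.17). Hdac10 was read at 2.60, 3.01 and 4.52 RPKM in Hoxa9/MTV mice (124, 135 and 236 reads) versus 0.816, 2.08 and 1.21 RPKM in mice 3.2, 3.3 and 3.5 (39, 110 and 52 reads). All 3 Hoxa9/IRX3 values lay under the controls, that of mouse 3.3 by the least, and without mouse 3.3 the log2 fold change was −1.34 (adjusted p = 0.042). The other class IIb gene, Hdac6, which encodes the cytoplasmic tubulin deacetylase, had −0.23 (SE 0.17), and the class IIa genes Hdac5 and Hdac7 had −0.21 and −0.0050, the latter with a 95% interval of −0.26 to 0.25.

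Of the 6 tested sirtuins, the mitochondrial enzymes Sirt3 and Sirt4 showed the largest differences, again without a call. Sirt5, also mitochondrial, was not tested in this fit and had 0.14 on recovered reads (limma voom). Sirt3, the principal deacetylase of the mitochondrial matrix, was read at 4.85, 4.50 and 5.09 RPKM in Hoxa9/MTV mice versus 1.22, 4.18 and 3.27 RPKM in Hoxa9/IRX3 mice. Controls were tightly grouped, whereas mouse 3.2 was far below its cohort, and the log2 fold change of −0.76 (SE 0.36, limma adjusted p = 0.242) was −0.34 without it. Sirt4, which acts on mitochondrial metabolic enzymes, was read at 2.63, 1.86 and 2.28 RPKM and at 1.61, 1.61 and 0.578 RPKM (156, 104, 148, 96, 106 and 31 reads), with mouse 3.5 the lowest. The resulting log2 fold change of −0.70 (SE 0.28, limma adjusted p = 0.193) was −0.38 without mouse 3.5. The nuclear sirtuins Sirt1, Sirt6 and Sirt7 had 0.10, −0.25 and −0.18, and the cytosolic Sirt2 had −0.081. Without mouse 3.5 Sirt6 and Sirt2 had 0.031 and 0.028, and without mouse 3.3 Sirt1 had −0.020. Sirt7 (12.8 to 15.9 RPKM in Hoxa9/MTV and 11.6 to 14.3 RPKM in Hoxa9/IRX3 mice, limma adjusted p = 0.497) overlaps the neighboring gene Mafg by 124 bases on the same strand, so some of its reads may belong to either.

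The members left untested included long genes that were transcribed. Besides Kdm5d and Kdm6bos these were Hdac4, Hdac8, Hdac9, Hdac11, Kdm4c, Kdm4d, Setd4 and Sirt5. Hdac9, a class IIa deacetylase gene whose span exceeds all other members, gave 198, 258 and 120 reads in Hoxa9/MTV mice and 762, 342 and 528 reads in Hoxa9/IRX3 mice (0.0131 to 0.0329 and 0.0369 to 0.0911 RPKM). The cohorts did not overlap. In a fit on recovered reads of genes with at least 10 reads in 3 mice (limma voom, chosen after seeing the data), the log2 fold change of Hdac9 came to 1.52 (SE 0.46, adjusted p = 0.102). In the same fit Hdac4, a paralog of Hdac9, had 0.59 (SE 0.27, adjusted p = 0.222), Hdac8, the X-linked class I deacetylase, 0.46 (SE 0.23), and the lysine 9 eraser Kdm4c 0.17 (SE 0.20). Hdac11, Setd4 and Sirt5, with 6 to 85 reads per mouse, had −0.37, −0.13 and 0.14 with 95% intervals that extended beyond a 2-fold change in at least 1 direction. Of the 59 members tested in that fit, Brd9 alone was called (−1.06, adjusted p = 0.0208).

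Small differences toward lower expression outnumbered the reverse among Brd, Sirt, Kdm, Setd and Setdb genes in the reported fit. The same held for all tested genes (57.5% negative), but not for Kmt2 genes, of which 4 of 5 had a positive log2 fold change. Except for Kmt2a these were close to 0 (Kmt2c 0.063, Kmt2d 0.043 and Kmt2e 0.078). Kmt2d turned negative without mouse 1.2, 3.2 or 3.3 (−0.045, −0.024 and −0.0035), and Kmt2c without mouse 1.4 (−0.0012). In 17 of 52 members (32.7%) every Hoxa9/IRX3 mouse was below every Hoxa9/MTV mouse, against 21.6% of all tested genes, and in 2 members (3.85%), Hdac2 and Kdm5c, every one was above, against 12.2%. The members below every control included Brd1, Brd7, Brd9, Ezh1, Hdac10, Kdm1a, Kdm2b, Kdm3b, Kdm4b, Kdm6a, Kdm6b, Setd1a, Setd3, Setdb2, Sirt3 and Sirt4. With mouse 3.5 left out of this count, 17 members (32.7%, against 25.7% of all tested genes) lay below and 7 (13.5%, against 18.7%) lay above. Mouse 3.5 was the lowest of the 6 mice in 29 members (55.8%), against 33.3% of all tested genes, and mouse 1.1 was the lowest in 0. Relative to the mean of the controls, the median log2 deviation of the members was −0.084 in mouse 3.2, −0.044 in mouse 3.3 and −0.30 in mouse 3.5, beside −0.026, −0.032 and −0.13 for all tested genes. Without mouse 3.5 the median log2 fold change of the members was −0.056 and that of all genes −0.026. Mouse 3.5 also had the smallest library (7979246 reads), a median-of-ratios size factor of 0.914 against 1.01 to 1.06 in the other mice, and the highest sum of neutrophil markers. The part of these in the members' values was not tested.

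**Figure D4:**
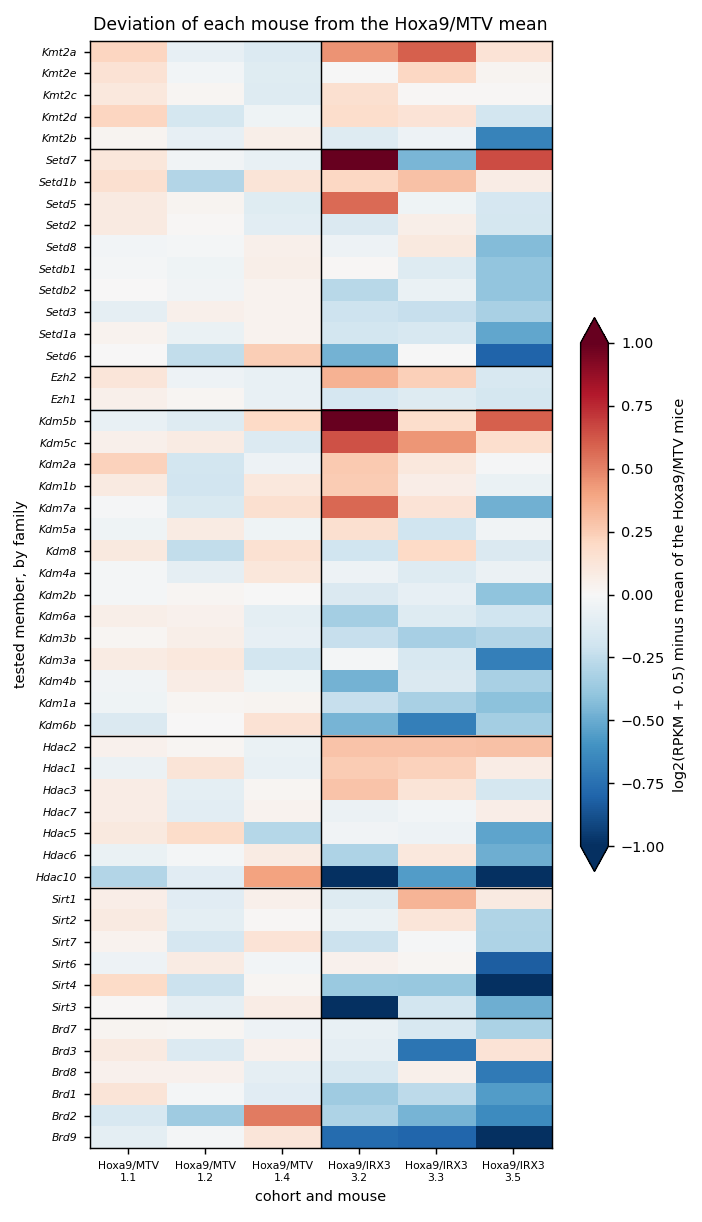
Deviation of each mouse from the mean of the Hoxa9/MTV mice, in log2(RPKM + 0.5), for 51 of the 52 tested members (rows, by family and in order of log2 fold change); blue is lower and red higher, with colors saturating at ±1. Mouse 3.5 is blue across most families, Brd9 is blue in all 3 Hoxa9/IRX3 mice, and Hdac2 and Kdm5c are red in all 3.

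Partner subunits and related chromatin enzymes gave few calls as well. Of 104 such genes listed, 90 were tested and 2 passed (2.22%, against 5.36% of all tested genes). Psip1, whose product LEDGF tethers the KMT2A and menin complex to chromatin, rose from 1.97, 1.76 and 1.73 RPKM in Hoxa9/MTV mice to 3.26, 2.69 and 2.75 RPKM in Hoxa9/IRX3 mice (log2 fold change 0.55, SE 0.11, limma adjusted p = 0.0455). Smyd2, a lysine methyltransferase of histone and non-histone substrates, fell from 1.11, 1.17 and 1.18 RPKM to 0.0593, 0.485 and 0.356 RPKM (−1.09, SE 0.22, limma adjusted p = 0.0417). Both calls were near the threshold and were lost without any 1 of the Hoxa9/MTV mice. None of the 9 genes of Polycomb repressive complex 2 and its partners passed (median log2 fold change −0.16), nor did any of the 20 tested HDAC corepressor genes (−0.11), the 8 acetyltransferases (−0.21), the 4 arginine methyltransferases (−0.16), the 4 other JmjC genes (−0.24) or the 21 other bromodomain genes (0.027). The MLL/COMPASS partners, which include Psip1, had a median of −0.0055 over 11 genes and the other lysine methyltransferases, which include Smyd2, −0.10 over 13.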

How the data were processed

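RNA was taken from sorted KIT+Gr1+ leukemia cells of 6 mice, and poly(A) libraries that keep strand were sequenced as paired 75 base reads. Per the labels and the study's methods, the authors aligned reads to GRCm38 (the submitters' processing notes name Bowtie2 2.2.1 and SAMtools 0.1.19) and deposited RPKM per Ensembl gene for each mouse. The deposited RPKM were tested on the file: values came out as whole reads within 0.01 read over the GENCODE M21 gene span for 44 of 62 members and for 65.0% of tested genes, and for the other 18 members a span was chosen that makes their values whole, so their reads and levels per kilobase of exon rest on that choice. Same-strand host genes held the reads of nested genes in 97.7% of 308 pairs, against 42.6% of 371 opposite-strand pairs, so reads had been counted over introns and by strand. The 6 libraries held 8843083, 8305937 and 9672522 (mice 1.1, 1.2 and 1.4) and 8860734, 9803621 and 7979246 reads (mice 3.2, 3.3 and 3.5). Tested members had 12 to 6509 reads per mouse.

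Groups came from the sample titles. Protein-coding genes over 0.5 RPKM in at least 1 mouse were tested with limma 3.58.1 in R 4.3.3 (trend in variance, moderated test on log2(RPKM + 0.5), Hoxa9/IRX3 minus Hoxa9/MTV, Benjamini-Hochberg over 9522 genes). Fold changes on this scale understate the change of genes with low values. Recovered reads were used only with limma voom, as an alternative. Genes were annotated from GENCODE M21, and promoter windows came from RefSeq. The fit was tested on simulated data. The members and lists were chosen with earlier results of these data known. Members were given in full where they passed the test, had the largest fold change or highest level of their family, or separated the cohorts with a log2 fold change of at least 0.5; values of other members, of Trip13 and of SWI/SNF subunits were chosen after they were seen. Other pseudocounts, filters, scalings and fits, and leaving out each mouse, were tried. Labels do not pair mice across cohorts. P-values compare the difference between cohorts with the spread between these mice, moderated over all tested genes. Whether mice of a cohort shared 1 transduced pool is not given, so they may not be independent. Values of 1 member, which stayed in every fit and count, are not reported here.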

Additional observations from a re-analysis of the deposited data

How the results depend on the processing

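Brd9 kept its direction in all 19 alternative fits, with log2 fold changes from −1.06 (limma voom) to −0.73, and its call in 16; adjusted p ranged from 0.014 to 0.101, and the calls lost were those without a Hoxa9/MTV mouse. The number of members called ranged from 0 to 3 as single mice were left out, the 3 (without mouse 3.3) being Brd9, Hdac10 and Setd7, and was 2 by the criterion of the study. Calls over all genes ranged from 61 to 758 (24 to 261 higher) as single mice were left out, and were 326 when all gene types were tested. Calls higher in Hoxa9/IRX3 were 299 per kilobase of exon. In the reported fit higher calls made up 34.3% of all calls, but 43.7% with median-of-ratios scaling and 45.8% with quantile normalization. The related genes called ranged from 0 to 4 as single mice were left out, were 0 without a filter and with all gene types, and 1 with an RPKM minimum of 1, per kilobase of exon, with median-of-ratios scaling, without a variance trend, with pseudocount 0.1, with sample weights and by the criterion of the study.

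The median log2 fold change of all members was −0.072 with quantile normalization and ranged from −0.19 to −0.056 as single mice were left out. That of the Kdm family was −0.21 with a minimum of 0.5 RPKM in 3 mice, −0.0043 with median-of-ratios scaling and 0.0097 with quantile normalization, and ranged from −0.17 to −0.046 as mice were left out; the Brd median ranged from −0.43 to −0.21 and the Sirt median from −0.32 to −0.042. Setd8 changed sign without mouse 3.5 (0.024, in a range from −0.24). The causes were not tested. Counting over introns limits what can be said of long genes, and no paired analysis was possible because the mouse numbers are not shared between cohorts.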
